A study of Mus musculus with 4 samples.

Results

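The BCL2 family sets the threshold for cell death at the mitochondrion, and 10 of its genes are described here in ribosome-bound RNA tagged by Fos activity in mouse CA1: Bcl2, Bcl2l1 (BCL-XL), Bcl2l2 (BCL-W), Mcl1, Bax, Bak1, Bad, Bid, Bcl2l11 (BIM) and Bbc3 (PUMA). They were taken by symbol from the 28193 genes of the deposited table, and the set was chosen by the SD and NSD values of Bcl2, which was higher in the sleep-deprived libraries. Those values are therefore given as a description, with no p. Bcl2 stays in the fit over all genes, and nothing is read from its side of the thresholds. All 10 were present and all 10 passed the filter on low counts, as did 22338 genes in all.

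All mice were male and, on day 0, all were sleep deprived while neurons that turned on Fos were labelled after an injection of 4-hydroxytamoxifen, so both groups carry the same tag from the same event. The tag is an HA epitope on RPL22, which sits in the large subunit of the ribosome, and RNA on the tagged ribosomes was collected with an HA antibody (fosTRAP-seq). On day 7 the SD mice were kept awake by gentle handling for the first hours of the light phase and the NSD mice were left undisturbed, and tissue was taken at the end of that time. NSD stands for not sleep deprived and SD for sleep deprived. Each library pooled the CA1 of several mice, and there were 2 NSD and 2 SD libraries, 1 of each in each labelled batch. The labels name the genotype as cFos-Cre:Ribotag and the tissue as dorsal hippocampus, whereas the study's methods describe adult C57BL/6J mice that received a virus with an inducible Cre under the c-Fos promoter and a virus with the Cre-dependent HA-tagged Rpl22. The tag is therefore meant to report cells near the injection in which that promoter was active on day 0, not a cell type. The paper also shows background tagging in control mice that received vehicle without the inducing drug. Some tagged cells may thus not have been active on day 0, and their share in these libraries was not tested. By co-staining, the paper found that c-Fos-positive cells after sleep deprivation were mostly neurons, and that these were mostly excitatory.

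In a living neuron the anti-apoptotic proteins BCL2, BCL-XL, BCL-W and MCL1 hold the effectors BAX and BAK in check. BH3-only proteins such as BIM, PUMA, BID, BAD and HRK carry a short helix, the BH3 helix, that fits a groove in the anti-apoptotic proteins, and some of them also bind BAX and BAK directly. When BAX and BAK assemble into pores in the outer mitochondrial membrane, cytochrome c leaves the mitochondrion, APAF1 forms the apoptosome and caspases are activated. In adult neurons BCL-XL and BCL-W are known as abundant survival proteins, and family members also act at synapses and on calcium stores of the endoplasmic reticulum.

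The BH3 helix is the part of sequence that all 10 members share, so the bases that encode its core are shown for them and for Hrk, a further BH3-only gene that a result below turns on. They were read from the GENCODE transcripts on GRCm39. Capitals mark the codon of the first hydrophobic residue (leucine or methionine) and the codon of the aspartate that is kept in every core.
Bcl2: CTCcgccgggctgggGATgacttc, chr1:106640308-106640331, minus strand
Bcl2l1: CTGagagaggcaggcGATgagttt, chr2:152671620-152671643, minus strand
Bcl2l2: ATGcgggctgctggaGACgagttt, chr14:55121974-55121997, plus strand
Mcl1: CTGcggcgcgtgggcGACggcgtg, chr3:95566747-95566770, plus strand
Bax: CTCcggcgaattggaGATgaactg, chr7:45115424-45115447, minus strand
Bak1: CTTgctctcatcggaGATgatatt, chr17:27241508-27241531, minus strand
Bad: CTCcgaaggatgagcGATgagttt, chr19:6928160-6928183, plus strand
Bid: CTCgcccaaataggcGATgagatg, chr6:120874253-120874276, minus strand
Bcl2l11: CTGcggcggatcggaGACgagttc, chr2:127989070-127989093, plus strand
Bbc3: CTGcggcggatggcgGACgacctc, chr7:16047698-16047721, plus strand
Hrk: CTGcaggcgctgggcGACgagctg, chr5:118307956-118307979, plus strand

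Each member held exactly 1 such core, and the same amino acid pattern was present in 681 of 21770 mouse proteins (3.13%), so the pattern alone does not define the family. Its letters were chosen with the known cores in view, so a match in every member was fixed in advance. Of the further family genes described below, Bok, Bik and Hrk held a match. Bmf, Pmaip1 and Bcl2l10, among others, held none, so the pattern also misses genes of the family. Among the members the cores of Bbc3 and Bcl2l11 were the most alike, with 19 of 24 bases in common, and those of Bcl2l2 and Bid were the least alike, with 9 of 24. The core of Bcl2 shared 16 of 24 bases with that of Bcl2l11, 15 with Bcl2l1 and 14 with Bcl2l2.

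The 4 libraries held 153511705 to 195910235 estimated counts. The members had 658.6 (Bak1, NSD 2) to 32508 counts (Bcl2l2, SD 1) per library, so their precision is limited by the 2 libraries per group. Levels are in CPM, in which each library is scaled by its total and its TMM factor. Fold changes are SD over NSD on the log2 scale with their standard error (SE), and a gene was called when its edgeR quasi-likelihood p, adjusted over all 22338 genes, was under 0.05 and its fold change over 1.2. As a check of the groups, Arc, an immediate early gene, was at 199 and 233 CPM in NSD and 386 and 426 CPM in SD and was called (adjusted p = 0.0328), while Fos was at 271 and 513 CPM in NSD and 336 and 375 CPM in SD, with overlapping groups. Rpl22, whose counts cannot separate the tag from the native gene, was at 628 and 1045 CPM in NSD and 610 and 809 CPM in SD. Markers of excitatory neurons summed to 5192 and 5378 CPM in NSD and 5030 and 5375 CPM in SD, with 2 of 4 lower in SD without overlap and a median log2 fold change of -0.16. Those of CA1 summed to 720 and 842 CPM in NSD and 599 and 700 CPM in SD, with 2 of 3 lower without overlap and a median of -0.35, and none of either list was called. Interneuron (705 to 799 CPM), astrocyte (414 to 463 CPM), oligodendrocyte (1403 to 1694 CPM) and microglia markers (54.8 to 71.9 CPM) were also present, and no list had a marker at 0. The 6 endothelial markers summed to 40.0 and 57.0 CPM in NSD and 32.2 and 20.7 CPM in SD, with all 6 lower in SD, 5 of them without overlap, a median log2 fold change of -0.94 and none called. Over all genes tested 27.5% were lower and 22.0% higher in SD without overlap. Whether these cell mixtures play a part in the values below was not tested, and fewer cells of a type and less RNA per cell cannot be told apart in pooled tissue.

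The levels of the members come first, over all 4 libraries, and they are those of the RNA collected, which also held markers of other cell types. Of the members, 3 anti-apoptotic genes had the highest levels. Per kilobase of exon, Bcl2l2 stood at 29.3 ± 3.53 CPM (mean ± standard deviation, n = 4 libraries), above Bcl2l1 at 15.7 ± 0.737 and Mcl1 at 14.2 ± 0.967. The effector Bax followed at 5.11 ± 0.149, Bcl2 at 2.998 ± 0.542, Bad at 2.17 ± 0.0662 and Bak1 at 1.86 ± 0.193. Bbc3 (1.21 ± 0.118), Bcl2l11 (1.097 ± 0.132) and Bid (0.534 ± 0.0365) had the lowest levels per kilobase. Bcl2l2 lay above 94.4% of the protein-coding genes tested on this scale, Bcl2 above 56.3% and Bid above 25.4%.

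Bcl2, the founding member, was thus the lowest of the 4 anti-apoptotic genes. It made up 4.61% and 4.17% of their summed level per kilobase in NSD and 4.96% and 5.42% in SD, against a mean of 47.0% for Bcl2l2, 25.4% for Bcl2l1 and 22.9% for Mcl1. Among the 6 pro-apoptotic members Bax held 42.7% of the sum, Bad 18.1%, Bak1 15.5%, Bbc3 10.1%, Bcl2l11 9.17% and Bid 4.46%. Of the 9 neighbouring pairs in the order of levels, 2 had libraries that overlapped, Bcl2l1 with Mcl1 and Bbc3 with Bcl2l11, so the spread over libraries does not separate them. Within each library Bcl2l1 nevertheless stood above Mcl1, while SD 2 reversed the order of Bbc3 and Bcl2l11. With the length of the longest transcript in place of all exons, 4 members changed place: Bad (4.37 CPM per kilobase) then stood above Bcl2 (3.81), and Bcl2l11 (2.17) and Bbc3 (2.16) above Bak1 (1.88).

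**Figure D1:**
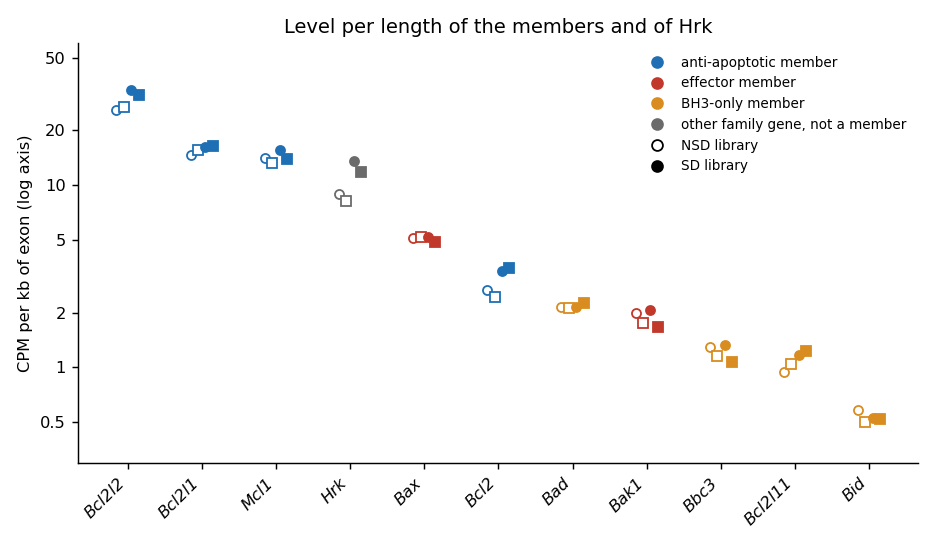
Level per length (CPM per kb of exon, log axis) of the 10 members and Hrk in each of the 4 libraries, ordered by their mean. Open symbols are NSD and filled symbols SD libraries, circles library 1 and squares library 2, and 3 of the 4 anti-apoptotic genes (blue) lie above every other member, from 13.2 CPM per kb upward, while Bcl2 lies between 2.43 and 3.53.

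The comparison of SD with NSD asks how a further sleep deprivation changed the RNA on ribosomes that had been tagged in an earlier one. Among the 9 members other than Bcl2, 0 were called higher in SD by edgeR and 0 lower, against 0.770% of all genes tested called higher and 2.33% called lower (of the protein-coding genes, to which all members belong, 0.952% and 0.540%). Of these 9, 2 had an unadjusted p under 0.05, Bcl2l2 and Bcl2l11, both with higher values in SD, where 6.86% of all genes tested had such a p with higher and 12.2% with lower values. With the batch as a replicate block 1 of these 9, Bcl2l2, was called higher and 0 lower (background 2.99% and 8.47%). With DESeq2, the study's tool, as run here, the same gene was the 1 called higher and again 0 were lower (background 2.99% and 5.79%). This run called more genes of the whole table lower than higher, whereas the paper reports more higher than lower. The calls of this run are therefore not those of the study. Without overlap, the SD pair exceeded the NSD pair for 4 of the 9, Bcl2l1, Bcl2l2, Bad and Bcl2l11, and fell below it for 0. Over all genes these shares were 22.0% and 27.5%, and 26.5% of protein-coding genes lay above. The median fold change over the 9 was 0.056 on the log2 scale, and that over all genes tested -0.016.

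Bcl2 (ENSMUSG00000057329, chr1:106465908-106642004, minus strand), which binds BH3-only proteins and restrains BAX and BAK, was at 24.4 and 22.4 CPM in the NSD libraries and at 31.2 and 32.5 CPM in the SD libraries. Both SD values were above both NSD values. The fitted log2 difference was 0.45 (SE 0.079), a fold of 1.36, and it was 0.35 within batch 1 and 0.54 within batch 2. It was 0.39 without NSD 2 and 0.54 without NSD 1.

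Bcl2l2 (ENSMUSG00000089682, chr14:55120834-55125691, plus strand) encodes BCL-W, a survival protein of mature neurons. It was at 140 and 145 CPM in NSD and at 180 and 169 CPM in SD, so that the groups did not overlap. The log2 fold change was 0.29 (SE 0.072, 95% interval 0.13 to 0.46), and it was not called by edgeR (adjusted p = 0.0693). With the replicate block the adjusted p was 0.00792 and with DESeq2 it was 0.000853. Without SD 2 the edgeR fit also called it (adjusted p = 0.0479).

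Bcl2l1 (ENSMUSG00000007659, chr2:152622588-152673648, minus strand), the gene of BCL-XL, was at 75.7 and 80.6 CPM in NSD and at 82.7 and 84.4 CPM in SD. Mcl1 (ENSMUSG00000038612, chr3:95566099-95570487, plus strand), whose protein turns over quickly, was at 49.2 and 46.2 CPM in NSD and at 54.3 and 48.6 CPM in SD. The groups of Bcl2l1 did not touch, whereas SD 2 fell below NSD 1 for Mcl1. Neither was called: the log2 fold changes were 0.10 (95% interval -0.055 to 0.25, adjusted p = 0.502) for Bcl2l1 and 0.11 (95% interval -0.069 to 0.29, adjusted p = 0.524) for Mcl1. The value of Mcl1 was 0.029 without SD 1 and 0.20 without SD 2.

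The effectors differed little between groups. Bax (ENSMUSG00000003873, chr7:45111121-45116322, minus strand) was at 9.57 and 9.62 CPM in NSD and at 9.65 and 9.06 CPM in SD. Bak1 (ENSMUSG00000057789, chr17:27238784-27247983, minus strand) was at 4.78 and 4.19 CPM in NSD and at 4.96 and 3.99 CPM in SD. In both genes SD 1 held the highest and SD 2 the lowest value of the 4 libraries, so the groups overlapped entirely. The log2 fold change of Bax was -0.036 (SE 0.10, adjusted p = 0.905), with a 95% interval of -0.27 to 0.20. That of Bak1 was -0.0037 (SE 0.17, adjusted p = 0.995) with an interval of -0.40 to 0.39, so a change of the size seen in Bcl2l2 lay outside the interval for Bax and inside it for Bak1. Bak1 also lies within the spans of Gm50253 and Ggnbp1 on the other strand, which had 222.5 and 79.5 counts on average against 775.3. The sign of Bak1 turned with DESeq2, with DESeq2's size factors and with either other count filter.

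Among the BH3-only members, Bcl2l11 (ENSMUSG00000027381, chr2:127967958-128004467, plus strand) encodes BIM, which binds all the anti-apoptotic members and can engage BAX and BAK. It was at 9.51 and 10.5 CPM in NSD and at 11.8 and 12.5 CPM in SD. The groups did not overlap, but the log2 fold change of 0.28 (SE 0.10, 95% interval 0.044 to 0.52) was not called (adjusted p = 0.183), nor was it with the replicate block (adjusted p = 0.0581) or DESeq2 (adjusted p = 0.105).

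Bad (ENSMUSG00000024959, chr19:6919229-6929267, plus strand), which is held inactive by phosphorylation and binding to 14-3-3 proteins, was at 9.57 and 9.48 CPM in NSD and at 9.66 and 10.1 CPM in SD, with a log2 fold change of 0.056 (adjusted p = 0.839). Bid (ENSMUSG00000004446, chr6:120868891-120893814, minus strand), which is cleaved by caspase-8, was at 5.73 and 4.89 CPM in NSD and at 5.18 and 5.11 CPM in SD (log2 fold change -0.046, adjusted p = 0.917). Bbc3 (ENSMUSG00000002083, chr7:16042318-16052130, plus strand), a target of p53, was at 6.18 and 5.56 CPM in NSD and at 6.33 and 5.11 CPM in SD (log2 fold change -0.037, adjusted p = 0.938). The SD values of Bid lay between its NSD values, the NSD values of Bbc3 between its SD values, and those of Bad were separate by a narrow margin. Bid and Bad overlap highly counted genes on the other strand: Bcl2l13 shares 913 bases of the deposited span of Bid (3059 exon bases in GENCODE) and had 9794.5 counts on average against 905.0. Gpr137 shares 620 bases of that of Bad (914 exon bases in GENCODE), with 12746.8 counts against 1685.4. Whether the counting used strand is not given in the sources used here, so reads of these pairs may have been exchanged.

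**Figure D2:**
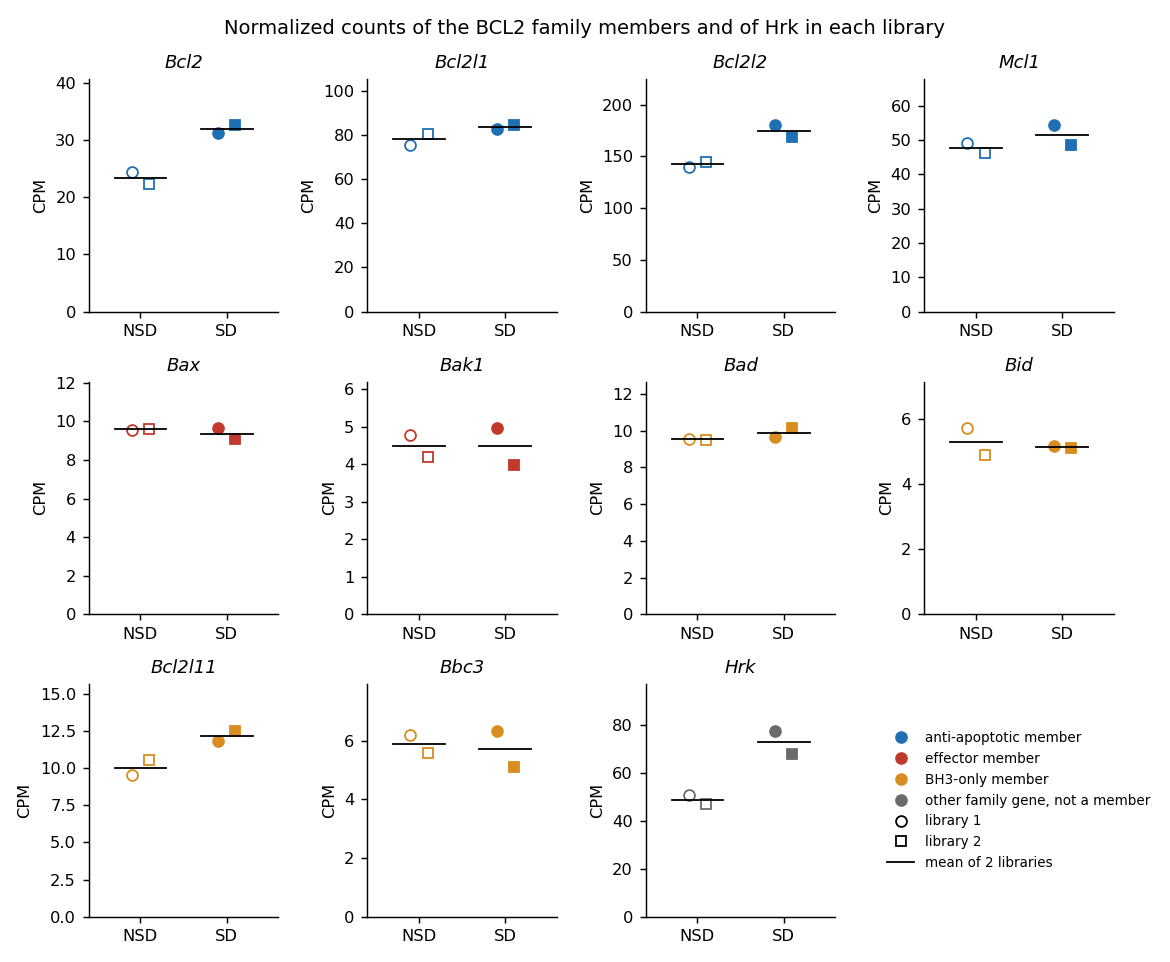
CPM of each member and of Hrk in the NSD (open) and SD (filled) libraries, with circles for library 1, squares for library 2 and a line at the mean of the 2 libraries; each axis starts at 0. Bcl2, Bcl2l2, Bcl2l11 and Hrk show separate groups with a visible gap, for Hrk 50.8 and 46.9 against 77.6 and 67.8 CPM, whereas the groups of Bax, Bak1, Bid and Bbc3 overlap.

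Of 15 further genes of the family, 14 were in the table, 10 passed the filter and 1 was called (background 0.770% higher and 2.33% lower), Hrk (ENSMUSG00000046607, chr5:118302713-118327543, plus strand), which rose. HRK, or Harakiri, is a BH3-only protein of neurons that binds BCL2 and BCL-XL, so it acts against the anti-apoptotic members. Its values were 50.8 and 46.9 CPM in NSD and 77.6 and 67.8 CPM in SD, and the groups did not overlap. The log2 fold change was 0.57 (SE 0.084, 95% interval 0.38 to 0.77; adjusted p = 0.0328), with 0.61 in batch 1 and 0.53 in batch 2. Per kilobase Hrk stood above each of the 4 BH3-only members, at 8.90 and 8.22 CPM per kilobase in NSD and 13.6 and 11.9 in SD. It was not called with edgeR's own count filter (adjusted p = 0.0628), under which 1 gene of the whole table was called higher and 0 lower.

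The other 9 were not called. Bnip3 and Bnip3l, receptors for the removal of mitochondria, had log2 fold changes of 0.15 (adjusted p = 0.415) and 0.05 (adjusted p = 0.799), and the mitochondrial Bcl2l13 0.14 (adjusted p = 0.276). The BH3-only genes Pmaip1 (NOXA) and Bmf gave 0.31 (adjusted p = 0.557) and -0.030 (adjusted p = 0.964), and the BAX-like Bok gave 0.07 (adjusted p = 0.901). Bcl2l12, at 0.29 CPM in NSD and 0.38 CPM in SD, gave 0.35 with a 95% interval of -0.60 to 1.31. Bcl2l12 overlaps Irf3 on the other strand, which had 834.0 counts on average against 58.5. The near-identical copies Bcl2a1b (-0.084) and Bcl2a1d (0.12) had reads that the counting may have split between them, so both values are uncertain. Bcl2l10, Bcl2l14, Bcl2l15 and Bcl2a1a did not pass the filter, with at most 36.9 counts in a library.

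**Figure D3:**
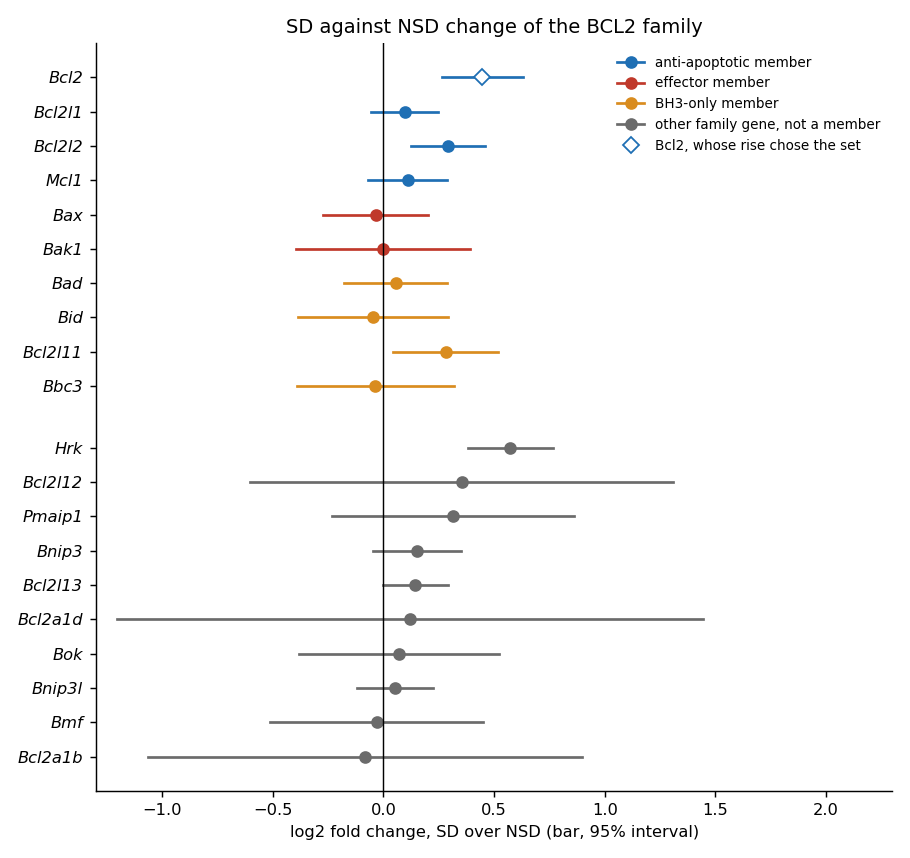
Log2 fold change of SD over NSD with its 95% interval from the edgeR fit, for the 10 members and the 10 further family genes that passed the filter. The open diamond is Bcl2 (0.45), by which the set was chosen; of the other intervals, those of Bcl2l2 (0.13 to 0.46), Bcl2l11 (0.044 to 0.52) and Hrk (0.38 to 0.77) lie above 0, and only Hrk was called.

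Summed per kilobase, the 4 anti-apoptotic members stood at 57.4 and 58.2 CPM in NSD and at 68.3 and 65.1 CPM in SD, and the 6 pro-apoptotic members at 12.1 and 11.7 CPM in NSD and at 12.4 and 11.6 CPM in SD. The ratio of these sums was 4.75 and 4.95 in NSD and 5.49 and 5.60 in SD, and without Bcl2, whose rise chose the set, 4.53 and 4.75 against 5.22 and 5.30. The ratio is a sum over members chosen with results known, and it was not tested; 2 libraries against 2 cannot go below p = 0.33 in an exact permutation test. With Hrk among the pro-apoptotic genes the ratio was 2.74 and 2.91 in NSD and 2.63 and 2.77 in SD. The groups overlapped, and within both batches the ratio was lower in SD, the reverse of the ratio without Hrk. Hrk was called higher in these same libraries, so adding it lowers the SD ratio by that choice. Nothing is read from the reversal, which was not tested. The ratio of Bcl2 to Bax per kilobase was 0.513 and 0.468 in NSD and 0.651 and 0.723 in SD. Its numerator is the value that chose the set, so it restates that choice and nothing is read from it.

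The letters TGACG are the half-site of the cAMP response element (CRE) that CREB and ATF proteins bind. In the promoter windows of RefSeq, which reach from 250 bases before a start to 50 after it, these letters were in 20.8% of 32851 promoters and in 3 of the 16 promoters of the 10 members, those of Bcl2, Bbc3 and Mcl1, but not in that of Bcl2l2. That of Hrk holds them too. The stretches of Bcl2 and Hrk are shown because these genes had the largest fold changes of the family genes, which for Bcl2 is the value that chose the set. Their display is thus no result, and members with no called change hold the half-site as well. The stretch of Bcl2 begins its half-site 107 bases before the start. The one of Hrk begins 46 bases before the start, is read on the opposite strand (CGTCA) and overlaps an exon of GENCODE. Both were placed on GRCm39 by a match of the whole RefSeq promoter, and capitals mark the half-site.
Bcl2: gaatgaacggTGACGtacgtacagg, chr1:106642113-106642137, minus strand
Hrk: ataatagcgcCGTCAgcacaacaaa, chr5:118307773-118307797, plus strand
The full element TGACGTCA was in 1.79% of promoters and in 0 of the 16, and the AP-1 letters TGANTCA, the site of FOS and JUN dimers, were in 7.81% and in 0 of the 16. The FOXO letters GTAAACA were in 3.65% of promoters and in 2 of the 16, those of Bcl2l11 and Bbc3, both of which are known FOXO3 targets. All letters were searched on both strands, every TGACGTCA also holds TGACG, and a match in a window is no sign of binding.

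Downstream of the family, none of the 30 genes of the apoptosome, the caspases, their inhibitors and the death receptors were called by edgeR, with the block or by DESeq2, and 1, Apaf1, had an unadjusted p under 0.05, with higher values in SD. Over all genes 0.770% were called higher and 2.33% lower by edgeR, 2.99% and 8.47% with the block and 2.99% and 5.79% by DESeq2, and 6.86% and 12.2% had such an unadjusted p. Their median log2 fold change was -0.0095, with 14 above 0 and 16 below. Apaf1, the scaffold of the apoptosome, was at 17.8 and 16.7 CPM in NSD and at 20.9 and 19.2 CPM in SD (log2 fold change 0.21, adjusted p = 0.235), and Htra2 had a log2 fold change of -0.15. Of the 7 caspases 6 had values below 0, as did 11805 of all 22338 genes tested and 7117 of 15551 protein-coding genes. The list median was -0.15 and the lowest value -0.50. Without overlap 4 caspases were lower and 1 higher in SD, where 27.5% and 22.0% of all genes were. Casp9, the caspase of the apoptosome, gave 0.08 (95% interval -0.083 to 0.25). Xiap, which blocks caspases, gave 0.15 (adjusted p = 0.358). The large inhibitor Birc6 was at 1185 and 589 CPM in NSD and at 885 and 664 CPM in SD, a log2 fold change of -0.20 that turned to 0.42 without NSD 1. Of the death receptor adaptors, Fadd gave -0.43 (adjusted p = 0.338; -0.19 without NSD 1) and Traf2 0.23 (adjusted p = 0.414; 0.13 without NSD 2).

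Upstream, none of the 38 genes whose proteins set the transcription, the phosphorylation or stability, or the endoplasmic reticulum partners of the family were called by edgeR, although 8 had an unadjusted p under 0.05, all with higher values in SD (background 6.86% higher and 12.2% lower). The block called 3 of them higher (background 2.99%), Atf4 and Foxo4 among them, and DESeq2 called 4 higher (background 2.99%), Atf4, Foxo4, Akt2 and Gsk3b (Gsk3b was named after its value was seen), and neither called any lower. Atf4, the transcription factor of the integrated stress response, was at 85.8 and 92.4 CPM in NSD and at 107 and 108 CPM in SD, with a log2 fold change of 0.27 (adjusted p = 0.0698, with the block 0.00557 and with DESeq2 0.00305). Foxo4, a forkhead factor restrained by AKT, was at 14.5 and 13.9 CPM in NSD and at 17.9 and 17.4 CPM in SD, with 0.32 (adjusted p = 0.0869, with the block 0.0171 and with DESeq2 0.0190). The groups of each of these factors were separate.

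Akt2, a kinase of the survival pathway that phosphorylates BAD, was at 63.6 and 60.7 CPM in NSD and at 74.2 and 73.2 CPM in SD, a log2 fold change of 0.25 (adjusted p = 0.0815). Becn1, the autophagy protein that BCL2 binds at the endoplasmic reticulum, and Itpr3, a calcium channel there, gave 0.12 (adjusted p = 0.379) and -0.19 (adjusted p = 0.531). The median log2 fold change of the 38 genes was 0.09, with 28 above 0. Above 0 were also 10533 of all 22338 genes tested and 8434 of 15551 protein-coding genes. Among the 38 the groups did not overlap in 20 genes higher and 2 lower in SD, where 22.0% and 27.5% of all genes did the same. Of protein-coding genes 26.5% were higher in SD without overlap.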

How the data were processed

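After trimming, the authors aligned reads to mm39 (GRCm39) using STAR, and Partek Flow assigned them to Ensembl genes by expectation-maximization. They deposited estimated counts per gene, not normalized, and 55.5% of the 28193 genes have a value that is not whole (tolerance 1e-09). These were rounded here. Genes over 5 counts in each library were fitted with edgeR 4.0.16 in R 4.3.3 (TMM, quasi-likelihood, condition as the only term, Benjamini-Hochberg over all genes), with the study's thresholds (adjusted p under 0.05, fold change over 1.2). DESeq2 1.42.0, the study's tool, was an alternative. The fits were tested on simulated data.

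Batch numbers in the labels equal replicate numbers and pair NSD with SD. Same-numbered libraries deviated from their group means with a correlation of 0.178 across genes. The labels call the libraries biological replicates, each a pool of animals. Replicates differed beyond sampling noise (chi-square per degree of freedom 99.6 for NSD and 53.4 for SD).

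Exon lengths, positions and coding bases came from GENCODE vM39 on GRCm39. The deposited end positions lie 1 base beyond those of GENCODE in all 9762 genes of equal version and are printed without that base. The BH3 core was searched as a pattern of hydrophobic, small and acidic residues in the translated coding sequences. Promoters came from RefSeq.

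The members and gene lists were chosen with earlier results of these data known. The genes named were all members, the further family genes that passed the filter, in each other list the called genes or else the 2 with the smallest p, and Fos, Arc and Rpl22. Results for some of the genes under this rule are not reported here. Intervals are 95% intervals of the edgeR fit. Standard deviations are over libraries. Alternatives were the replicate block, DESeq2, its size factors, other count filters, protein-coding genes only, no fold threshold, each library left out and other gene lengths. Exons inside the deposited gene span were added as a length after the data had been seen, because the GENCODE model of Bid is longer.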

Additional observations from a re-analysis of the deposited data

How the results depend on the processing

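Of the 9 members other than Bcl2, the replicate block called 1 higher and DESeq2 1 (Bcl2l2 in both), where 668 and 669 genes of the whole table were called higher, and 0 were called with no count filter, with edgeR's own filter and with protein-coding genes only (50, 1 and 51 of the whole table). With 1 library left out 0 were called, except Bcl2l2 without SD 2 (adjusted p = 0.0479), and these fits called 144 to 321 genes of the whole table higher. Bcl2 is left out of these counts, because its rise chose the set. No setting called a member lower. The log2 fold change of Bcl2 was 0.42 to 0.47 under the other settings and 0.39 to 0.54 with 1 library left out. Of the further family genes 0 were called with edgeR's own filter. Of the regulators the block called 3, DESeq2 4, and the fits without 1 library 0 to 1 (Atf4 without NSD 2, adjusted p = 0.0470). The block changed no call among the 30 genes downstream. A lone library was assumed to vary like the other group.

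Signs turned in the following genes, none of them called. Bak1 gave 0.018 with DESeq2, 0.018 with its size factors, 0.023 with no filter and 0.0029 with edgeR's own filter. With 1 library left out the ranges were -0.17 to 0.16 for Bak1, -0.080 to 0.027 for Bax, -0.16 to 0.10 for Bid, -0.20 to 0.13 for Bbc3, -0.22 to 0.0801 for Bcl2a1b, -0.28 to 0.45 for Bcl2a1d, -0.14 to 0.35 for Bok, -0.28 to 0.31 for Bmf, -0.0033 to 0.14 for Bnip3l, -0.27 to 0.012 for Htra2, -0.61 to 0.42 for Birc6, -0.50 to 0.39 for Fos and -0.53 to 0.18 for Rpl22. The cause was not tested. Other genes kept their sign but moved in size with 1 library left out. The ranges were -0.29 to -0.056 for Itpr3, 0.076 to 0.25 for Xiap, 0.034 to 0.15 for Casp9 and 0.072 to 0.27 for Bnip3.

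By the longest transcript 4 members changed place in level, and the shares were 30.1% for Bcl2l1, 18.5% for Mcl1, 9.22% for Bak1, 21.5% for Bad, 5.64% for Bid and 10.7% for Bcl2l11. By exons inside the deposited span they were 23.1% for Bcl2l1, 51.4% for Bcl2l2, 21.2% for Mcl1 and 5.44% for Bid.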
